A study of Mus musculus with 6 samples.

Results

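The genes described here encode the extracellular matrix of the liver, the enzymes that crosslink and degrade it, the signals that raise its synthesis, and markers of hepatic stellate cells. The list names 47 genes, of which 44 could be matched to a probe set by gene symbol or synonym, out of 18029 genes measured. Loxl2, Spp1 and Fbn1 were not analysed here, and Ctgf is named by its current symbol, Ccn2. Livers came from RECS1-HKO mice, which lack RECS1 in hepatocytes (HKO, n = 3), and from RECS1-flox mice, called control (n = 3). Both groups are on the C57BL/6 background, ate a high fat diet (HFD) for 8 weeks and were 16 weeks old, and RNA of each liver was read on 1 Affymetrix expression array. The Cre driver behind the deletion and the sex of the mice are not stated in the labels. RECS1 is now named Tmbim1 and encodes a multi-pass membrane protein.

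Hepatic stellate cells sit between the sinusoidal endothelium and the hepatocytes and, when quiescent, store retinyl esters made by the acyltransferase Lrat. On injury they can turn into contractile myofibroblasts that express Acta2 and secrete fibrillar collagen, driven mainly by TGF-beta and PDGF. Matrix metalloproteinases (Mmp genes) cut this matrix, Timp proteins inhibit them, and lysyl oxidases (Lox genes) crosslink collagen and elastin. Hepatocytes themselves secrete plasma fibronectin (Fn1) and the type XVIII collagen whose fragment is endostatin (Col18a1).

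None of the 44 genes passed the test between genotypes in either direction, against 1.01% of all 18029 genes (0.56% higher and 0.449% lower in HKO; limma, Benjamini-Hochberg adjusted p under 0.05). The lowest adjusted p of a member was 0.357. At an unadjusted p under 0.05 there were 3 members (6.82%), namely Ccn2, Mmp14 and Col6a3, against 13.0% of all genes. The median difference of the 44 genes was -0.03 on the log2 scale (HKO minus control), beside a median of 0.00 over all genes, with 21 positive (47.7%, against 48.8% of all genes). The 95% interval of the difference lay within 1 log2 unit of 0 in 41 of the 44 genes (93.2%), against 98.2% of all genes, and within 0.5 log2 units in 28 (63.6%), against 87.0%. A change of 2-fold or more lay outside the interval of all members but Col3a1, Mmp12 and Ccn2. The intervals were wider for these genes than for most, with a median standard error of 0.135 log2 units for the members and 0.0928 for all genes.

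**Figure D1:**
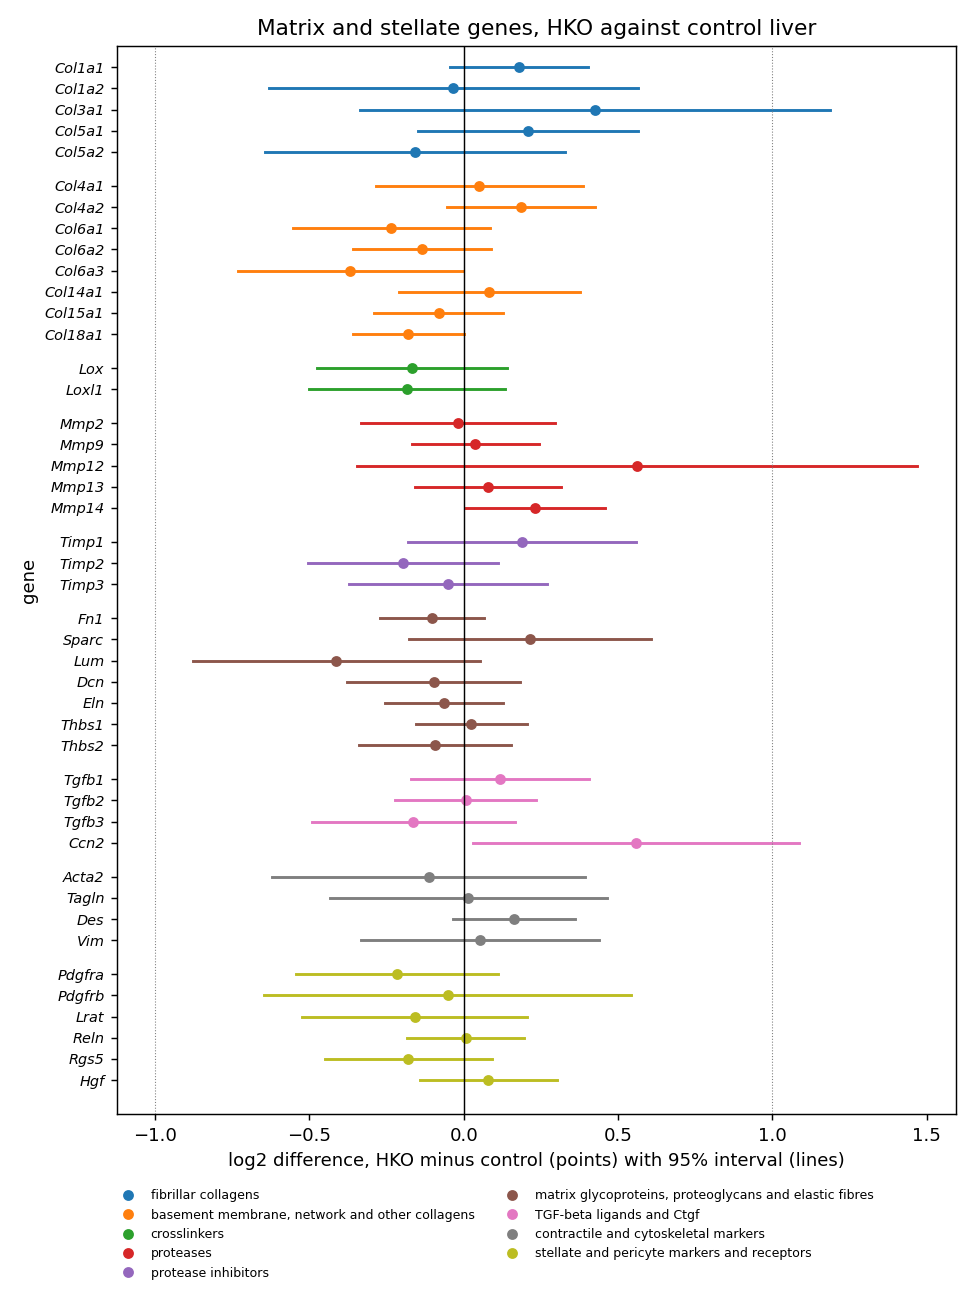
Points give the log2 difference, HKO minus control, of 44 matrix and stellate genes, and lines give its 95% interval from limma (n = 3 livers a group); colours mark the roles and dotted lines stand at -1 and 1. The intervals of Col3a1, Mmp12 and Ccn2 reach beyond 1, and those of the other 41 genes stay within the dotted lines.

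Values varied between livers of the same genotype. The liver HKO 3 held the highest of the 6 values for 20 of the 44 genes (45.5%), while over all genes it held the highest for 18.7%. Within the HKO group, HKO 3 was the highest for 31 of the 44 genes (70.5%, against 34.4% of all genes), and HKO 2 was the lowest for 21 (47.7%, against 34.2%). This pattern was noticed in the values and is given as a description with no test. The range over the HKO livers exceeded that over the control livers in 28 members (63.6%, against 51.0% of all genes). Since each liver is 1 array, a property of the animal and one of its RNA or hybridisation cannot be told apart. In whole liver, more cells of a type and more RNA per cell cannot be told apart either.

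**Figure D2:**
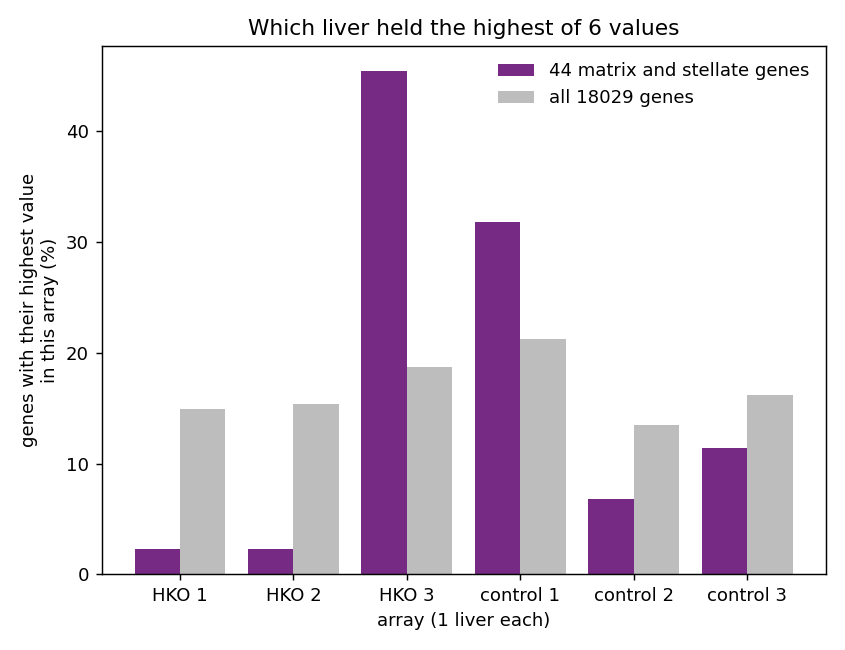
Bars give the percent of genes whose highest of 6 log2 values fell in each array, for 44 matrix and stellate genes and for all 18029 genes. HKO 3 held the highest value of 45.5% of the matrix and stellate genes and of 18.7% of all genes, and control 1 held that of 31.8% and 21.2%.

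The proximal promoters of 3 genes are shown because these genes had the widest range among HKO livers of the members that were brighter than the median gene, highest in HKO 3 within that group, and present once in the promoter table. Each sequence is the 250 bases before the annotated gene start, from RefSeq (build GRCm38.p6), written 5′ to 3′ on the strand of the gene. Col3a1 lies at chr1:45311288-45311537 (plus strand), Col1a2 at chr6:4505368-4505617 (plus strand) and Sparc at chr11:55420081-55420330 (minus strand). Capitals mark matches, searched on both strands, to the CCAAT box (CCAAT), the TATA box (TATAAA) and the GC box (GGGCGG), motifs that share no overlapping match here.
Col3a1: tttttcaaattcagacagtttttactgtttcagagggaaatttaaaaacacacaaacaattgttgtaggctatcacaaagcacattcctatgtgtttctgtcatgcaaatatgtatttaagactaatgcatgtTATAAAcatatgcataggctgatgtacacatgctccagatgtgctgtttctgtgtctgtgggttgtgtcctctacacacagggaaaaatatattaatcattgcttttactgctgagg
Col1a2: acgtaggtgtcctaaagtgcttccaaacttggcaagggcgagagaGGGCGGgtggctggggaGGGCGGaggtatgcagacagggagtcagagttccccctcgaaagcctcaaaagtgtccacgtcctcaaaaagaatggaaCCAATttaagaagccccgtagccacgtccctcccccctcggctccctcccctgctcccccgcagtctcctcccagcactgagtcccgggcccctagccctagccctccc
Sparc: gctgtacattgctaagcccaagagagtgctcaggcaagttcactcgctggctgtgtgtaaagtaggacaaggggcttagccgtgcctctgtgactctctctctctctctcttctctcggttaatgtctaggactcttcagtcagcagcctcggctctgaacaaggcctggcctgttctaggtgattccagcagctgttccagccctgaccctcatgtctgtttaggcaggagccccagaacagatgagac

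The Col3a1 window holds 1 match, a TATA box that begins 117 bases before the annotated start. The Col1a2 window holds 2 GC boxes, which begin 205 and 188 bases before the start, and a CCAAT box that begins 109 bases before it, and the Sparc window holds none of these letters. Over all 32851 windows of the same length, 33.8% hold a CCAAT box, 12.4% a TATA box and 32.7% a GC box. Of the 28 members found in the promoter table, 12 hold a CCAAT box, 5 a TATA box and 13 a GC box. A member counts if any of its windows matches, while the percentages count single windows, so these are not like measures.

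The fibrillar collagens form the tension-bearing fibres of scar. All 5 had their highest value in HKO 3. Col3a1, the chain of type III collagen, measured 8.22, 7.68 and 9.20 (log2 intensity) in HKO livers 1 to 3, against 8.21, 7.80 and 7.82 in control livers 1 to 3. HKO 3 lay well above the other 5 livers, and HKO 2 lay below all 3 controls, so the groups overlapped on both sides. The difference was 0.43 ± 0.33 (log2, SE; adjusted p = 0.647), and without HKO 3 it was 0.01.

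Col1a2, a chain of type I collagen, was likewise highest in HKO 3 and lowest in HKO 2, with 6.30, 5.96 and 7.13 in HKO livers and 6.65, 6.35 and 6.49 in controls. Its difference was -0.03 ± 0.26 (adjusted p = 0.974), and -0.37 without HKO 3. Its partner Col1a1, the other chain of type I collagen, was below the brightness of the median gene and measured 4.08, 4.30 and 4.37 in HKO livers and 3.96, 4.10 and 4.15 in controls. The groups overlapped, at 0.18 ± 0.10 (adjusted p = 0.493). Type V collagen starts the assembly of these fibres. Its chain Col5a1 was at 4.65, 4.67 and 5.23 in HKO livers and 4.71, 4.53 and 4.69 in controls (0.21 ± 0.15, adjusted p = 0.631, and 0.02 without HKO 3). Its chain Col5a2 stood at -0.16 and at -0.41 without that liver. The second probe set of Col1a2 was again highest in HKO 3, with 3.92, 3.38 and 4.34 in HKO livers and 3.59, 3.33 and 3.65 in controls. Its difference of 0.36 had the other sign than that of the brightest, as had its dimmest probe set (0.02). Dimmer probe sets of Col1a1 (-0.09), Col5a1 (-0.25) and Col5a2 (0.18) also reversed. Those of Col3a1 (0.13) and another of Col5a1 (0.02) kept the sign.

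**Figure D3:**
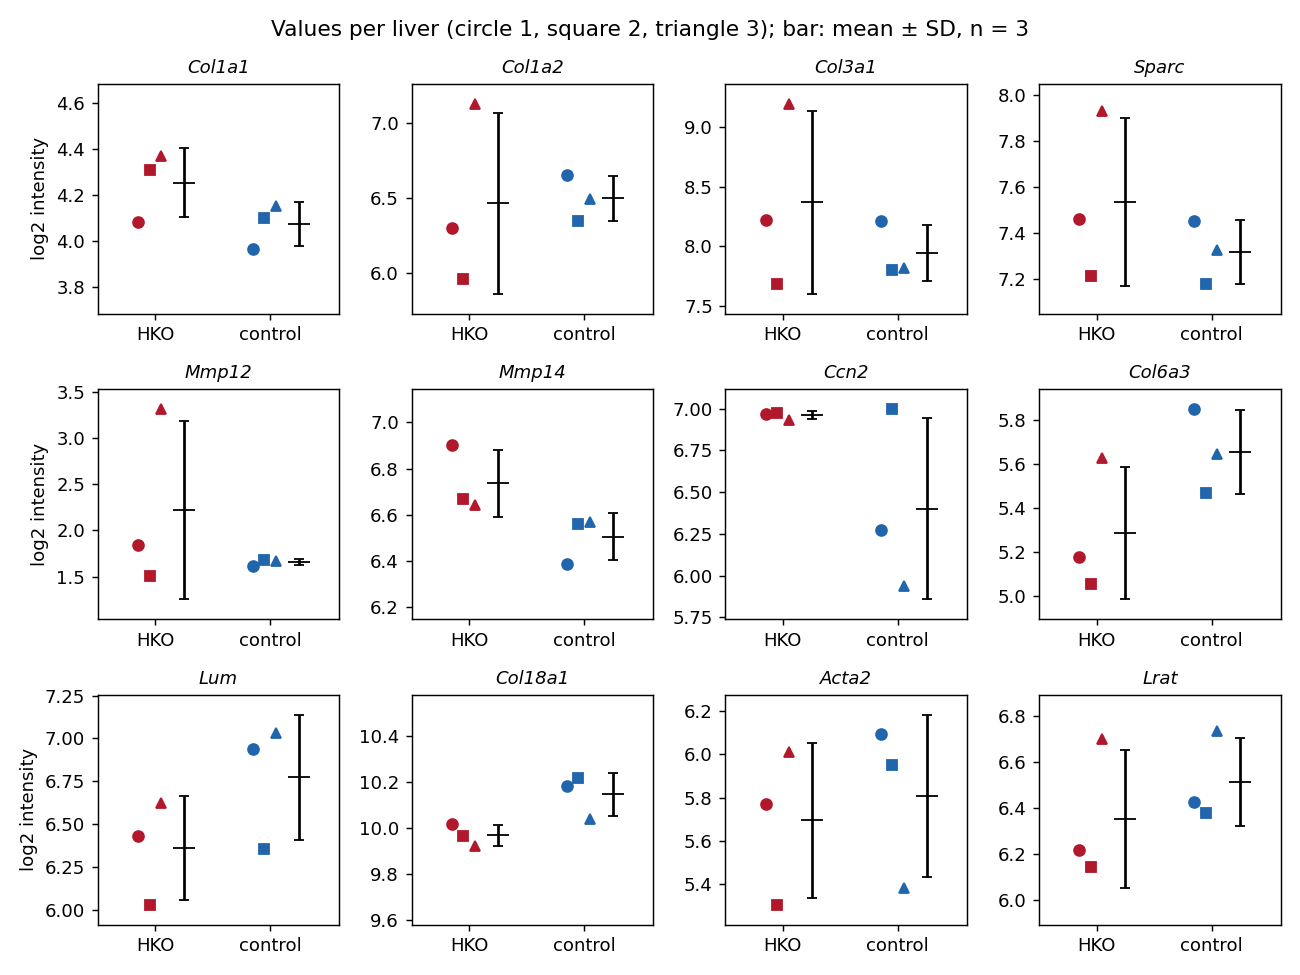
Each panel gives the log2 intensity of 1 gene in 3 HKO livers and 3 control livers (circle, square and triangle for animals 1, 2 and 3, numbers that do not pair animals across groups), with the mean and SD beside them; the vertical scales differ. In the panels of Col1a2, Col3a1, Sparc and Mmp12 the triangle of HKO 3 lies above all other points, while the HKO values of Ccn2 lie close together within the spread of the controls.

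Of the 8 basement membrane, network and other collagens, 3 had positive and 5 negative differences, between -0.37 (Col6a3) and 0.19 (Col4a2). The 3 chains of type VI collagen, which forms beaded microfilaments around cells, were all on the negative side. Col6a3 measured 5.18, 5.06 and 5.63 in HKO livers and 5.85, 5.47 and 5.64 in controls (-0.37 ± 0.16, adjusted p = 0.381). HKO 1 and HKO 2 lay below all controls and HKO 3 among them, and without HKO 3 the difference was -0.54. Col6a1 stood at -0.23 ± 0.14 and Col6a2 at -0.14 ± 0.10.

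Col18a1 measured 10.02, 9.96 and 9.92 in HKO livers and 10.18, 10.22 and 10.04 in controls. The groups did not overlap, and the difference of -0.18 ± 0.08 did not pass (adjusted p = 0.387). Its dimmer probe set stood at -0.10. The main chains of the basement membrane, Col4a1 and Col4a2, stood at 0.05 ± 0.15 and 0.19 ± 0.10, both with their highest value in HKO 3. Col14a1, which binds to the surface of collagen fibrils, stood at 0.08, and Col15a1 of the basement membrane zone at -0.08.

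Groups without overlap were found for 4 members (9.09%), against 18.7% of all genes. Mmp14 and Des had all HKO values above all control values (2 members, 4.55%, against 8.58% of all genes), and Col18a1 and Fn1 had them below (4.55%, against 10.1%). None of the 4 passed the test.

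The crosslinking enzymes were dim. Lox, which oxidises lysines of collagen and elastin, measured 2.67, 2.70 and 2.86 in HKO livers and 3.19, 2.89 and 2.65 in controls (-0.17 ± 0.13, adjusted p = 0.658). Loxl1, which acts mainly on elastic fibres, measured 3.53, 3.11 and 3.67 in HKO livers and 3.70, 3.56 and 3.60 in controls (-0.18 ± 0.14, 0.637). Both pairs of groups overlapped.

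Among the proteases, Mmp14, the membrane-anchored collagenase that also activates Mmp2, measured 6.90, 6.67 and 6.64 in HKO livers and 6.39, 6.56 and 6.57 in controls. All HKO values lay above all control values, and the difference of 0.23 ± 0.10 did not pass (adjusted p = 0.367). Its other probe sets stood at 0.19 and 0.12. Mmp12, the macrophage elastase, measured 1.84, 1.50 and 3.31 in HKO livers and 1.62, 1.68 and 1.66 in controls. A single liver, HKO 3, set its difference of 0.56 ± 0.39 (adjusted p = 0.607), which was 0.02 without that liver, and all its values lay below the median gene (4.69). The gelatinases Mmp2 and Mmp9 stood at -0.02 and 0.04 and the collagenase Mmp13 at 0.08.

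None of the 3 inhibitors passed the test. Timp1, the inhibitor most used as a marker of fibrogenic activity, measured 2.53, 2.76 and 3.06 in HKO livers and 2.73, 2.31 and 2.74 in controls (0.19 ± 0.16, adjusted p = 0.683). Timp2 measured 6.32, 6.14 and 6.70 in HKO livers and 6.58, 6.59 and 6.57 in controls (-0.20 ± 0.13, 0.592). Its control values spanned 0.021 log2 units while the HKO values lay on both sides of them. Dimmer probe sets of Timp2 lay between -0.20 and 0.18, on both sides of 0. Timp3, which is bound to the matrix, stood at -0.05, and its dimmer probe sets at 0.05, 0.27 and 0.04.

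Of 7 measured glycoproteins, proteoglycans and elastic fibre genes, 2 had positive differences. Lum, which encodes the collagen-binding proteoglycan lumican, measured 6.43, 6.03 and 6.62 in HKO livers and 6.94, 6.35 and 7.03 in controls (-0.41 ± 0.20, adjusted p = 0.448). The groups overlapped through control 2, the lowest control. Decorin (Dcn), a related proteoglycan, stood at -0.10 ± 0.12 and also had its lowest control value in control 2. Sparc, a collagen-binding protein of remodelling matrix, measured 7.46, 7.21 and 7.93 in HKO livers and 7.46, 7.18 and 7.33 in controls (0.22 ± 0.17, 0.655, and 0.02 without HKO 3).

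Fn1 measured 11.29, 11.27 and 11.15 in HKO livers and 11.37, 11.35 and 11.29 in controls, a difference of -0.10 ± 0.07 (adjusted p = 0.619). Its second, dimmer probe set measured 4.52, 3.72 and 4.46 in HKO livers and 4.73, 5.47 and 4.83 in controls. Here too no HKO value reached the controls, and the difference of -0.78 ± 0.25 did not pass among all probe sets (adjusted p = 0.262). The elastic fibre gene Eln and the thrombospondins Thbs1 and Thbs2, which can activate latent TGF-beta in the case of Thbs1, stood at -0.06, 0.02 and -0.09.

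The TGF-beta ligands were dim and close to 0, with Tgfb1 at 0.12 ± 0.13, Tgfb2 at 0.01 ± 0.10 and Tgfb3 at -0.16 ± 0.14. Tgfb3 measured 3.59, 3.61 and 3.36 in HKO livers and 3.74, 3.93 and 3.37 in controls (adjusted p = 0.69). Ccn2, the matricellular protein known as connective tissue growth factor and a target of TGF-beta and of YAP, had the lowest p of all members. It measured 6.97, 6.98 and 6.93 in HKO livers and 6.27, 7.00 and 5.94 in controls. The HKO values spanned 0.043 log2 units, while control 2 lay above all of them and the other controls well below. The difference was 0.56 ± 0.23 (1.47-fold, adjusted p = 0.357), and it passed only in the fit without control 2 (0.86, adjusted p = 0.0353), the single member call in any of the 6 fits that left out 1 array.

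Contractile and cytoskeletal markers of myofibroblasts overlapped in 3 of 4 cases. Acta2, smooth muscle actin, measured 5.77, 5.30 and 6.01 in HKO livers and 6.09, 5.95 and 5.38 in controls (-0.11 ± 0.22, adjusted p = 0.868). Its values differed more within each genotype than between them, and Tagln, the actin-binding protein transgelin, had HKO 2 and control 3 as the lowest livers of their groups just as Acta2 did. Des, the intermediate filament of stellate and muscle cells, measured 5.16, 5.30 and 5.43 in HKO livers and 5.10, 5.15 and 5.15 in controls. These did not overlap, at 0.16 ± 0.09 (0.486), and its dimmer probe set stood at -0.09. Vimentin (Vim) stood at 0.05.

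The stellate and pericyte markers and receptors ranged from -0.22 (Pdgfra) to 0.08 (Hgf). Pdgfra, a PDGF receptor of mesenchymal cells, measured 5.15, 5.42 and 5.48 in HKO livers and 5.43, 5.40 and 5.87 in controls (-0.22 ± 0.14, adjusted p = 0.581). Rgs5, a regulator of G protein signalling in pericytes, measured 8.00, 7.81 and 7.66 in HKO livers and 8.18, 7.98 and 7.84 in controls (-0.18 ± 0.12, 0.58), and these values overlapped. In its second probe set all HKO values lay below the controls, without passing (-0.23, limma adjusted p = 0.463 among all probe sets). Its dimmer probe sets overlapped, at -0.22 and 0.04. Lrat was at 6.22, 6.15 and 6.70 in HKO livers and 6.43, 6.38 and 6.73 in controls (-0.16 ± 0.16, 0.729). In Lrat and in Pdgfrb, the other PDGF receptor, animal 3 was the highest of each group. The stellate cell glycoprotein Reln stood at 0.01, and Hgf, the hepatocyte growth factor that stellate cells secrete, at 0.08.

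**Figure D4:**
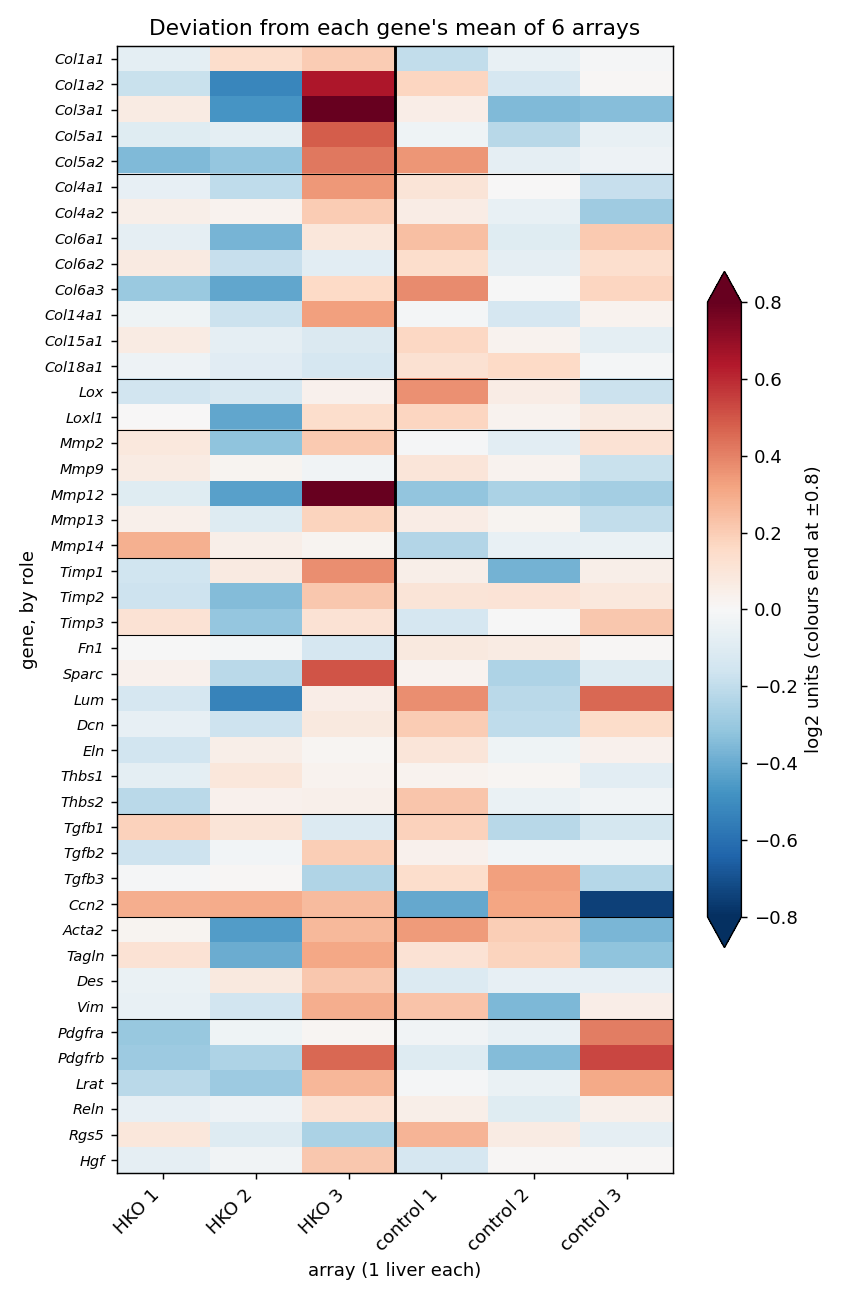
Colours give the deviation of each log2 value from the mean of that gene over 6 arrays, with HKO livers left of the line and control livers right of it, and genes ordered by role. The column of HKO 3 is red for all 5 fibrillar collagens, for Sparc and for Mmp12, and the column of HKO 2 is blue for Col1a2, Col3a1, Lum and Acta2.

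HKO 3 did not stand highest in every role. Averaged over its genes, the deviation from the 6-array mean in HKO livers 1 to 3 was -0.13, -0.25 and 0.56 log2 units for the fibrillar collagens, against 0.07, -0.17 and -0.09 in controls. It was -0.14, -0.12 and 0.14 in HKO livers and 0.01, -0.08 and 0.20 in controls for the stellate and pericyte markers and receptors, so that there control 3 lay above HKO 3. It was 0.01, -0.23 and 0.27 in HKO livers and 0.14, -0.01 and -0.18 in controls for the contractile and cytoskeletal markers. HKO 3 also had the highest mean of the 6 livers in the proteases (0.35) and the protease inhibitors (0.23). The protease mean leaned on the dim Mmp12, at 3.31 in HKO 3 beside a 6-array mean of 1.94. For Mmp9 and Mmp14, HKO 3 was the lowest HKO liver. Control 1 lay above HKO 3 in the crosslinkers (0.09 in HKO 3 and 0.27 in control 1), the other collagens (0.10 and 0.15) and the matrix glycoproteins (0.08 and 0.15). In the TGF-beta ligands and Ctgf HKO 3 was the lowest HKO liver, with 0.07, 0.10 and 0.02 in HKO livers and -0.01, 0.10 and -0.28 in controls. Over all genes the largest such mean was 0.01. Normalization holds that mean near 0, so it gives no measure of how far a small set of genes can deviate.

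Probe sets beyond the brightest gave a second reading of the same RNA. The 44 genes have 98 probe sets, none of which passed when each was tested on its own (lowest adjusted p = 0.207, Tgfb2, at 0.31 in a dim probe set). Of the 54 probe sets beside the brightest, 32 had the sign of the brightest, and 19 (35.2%) had their highest value in HKO 3, against 18.5% of such probe sets of all genes.

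**Figure D5:**
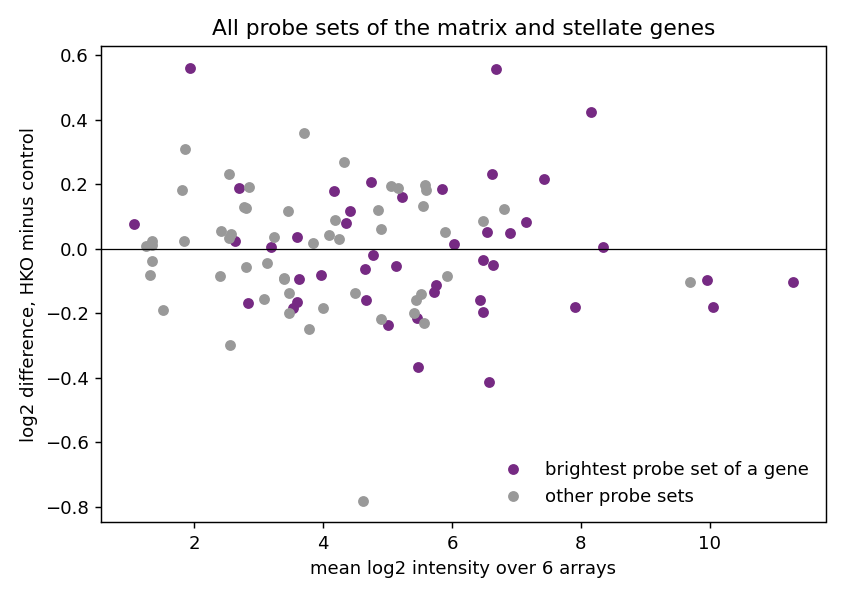
Each point is 1 probe set of the 44 genes, placed by its mean log2 intensity over 6 arrays and its log2 difference, HKO minus control. The grey point at -0.78 is the dimmer probe set of Fn1, and the purple points at 0.56 are Mmp12, which is dim, and Ccn2.

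Further genes of the pathway were read from lists that hold no member. Of 109 measured genes in 6 lists, 1 rose and none fell, while 1.01% of all 18029 genes passed in either direction. The gene that rose was Sdc1, the heparan sulfate proteoglycan syndecan-1, which hepatocytes carry on their surface. It measured 8.94, 8.84 and 8.76 in HKO livers and 8.35, 8.41 and 8.35 in controls, with no overlap (0.47 ± 0.08, adjusted p = 0.0351), but in the 6 fits without 1 array its adjusted p lay between 0.0637 and 0.124. None of 15 collagen-modifying enzymes and chaperones passed, where 3 differences were positive, the median was -0.11 and the lowest p belonged to the cyclophilin Ppib (-0.24, adjusted p = 0.262). None of 16 TGF-beta receptors, Smads and latent binding proteins passed (median 0.00, lowest p for Smad2 at 0.31, 0.167).

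None of 18 other proteases and plasmin system genes passed (median -0.02, with the urokinase receptor Plaur at 0.31, 0.0984), and none of 13 PDGF and hedgehog ligands, hedgehog pathway genes and HGF receptor genes (median -0.01, with the hedgehog receptor Ptch1 at -0.31, 0.185). Of the 109 genes, 30 had their highest value in HKO 3 (27.5%, against 18.7% of all genes). This share was 13.3% in the collagen-modifying enzymes and in the matrix receptors, and 16.7% in the other proteases. It was 31.2% in the TGF-beta receptor list and 38.5% in the PDGF and hedgehog list. Among 32 other matrix proteins none passed, and 13 were highest in HKO 3 (40.6%), the largest share of the 6 lists. The lowest p there was that of Postn, periostin, an activated fibroblast protein, which measured 6.35, 6.09 and 6.70 in HKO livers and 6.00, 5.58 and 5.90 in controls. Its groups did not overlap, and its difference of 0.56 ± 0.17 did not pass (adjusted p = 0.213).

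Markers of the cells that could carry these transcripts were read beside them, as the mean log2 level of each list per liver. The marker lists share genes with the other matrix proteins, namely Postn, Mfap4 and Fbln2 (fibroblast list) and Ecm1 (quiescent stellate list). Quiescent stellate cell markers (0 of 13 passed) ranged over 5.63 to 5.74 in HKO livers and 5.55 to 5.80 in controls. Fibroblast and portal fibroblast markers (0 of 14) lay -0.01, -0.10 and 0.13 log2 units from their mean over the 6 arrays in HKO livers 1 to 3, highest in HKO 3, and 0.14, -0.14 and -0.01 in controls 1 to 3. Smooth muscle markers (0 of 10) ranged over 4.67 to 4.70 in HKO livers and 4.59 to 4.69 in controls. Endothelial markers (0 of 16) ranged over 6.00 to 6.18 in HKO livers, lowest in HKO 2, and 6.02 to 6.21 in controls.

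Macrophage and Kupffer cell markers (0 of 17 passed) ranged over 6.74 to 7.01 in HKO livers, lowest in HKO 3, and 6.59 to 7.11 in controls. Neutrophil markers (0 of 8) lay -0.27, 0.04 and -0.07 log2 units from their 6-array mean in HKO livers 1 to 3 and 0.54, -0.16 and -0.07 in controls 1 to 3. Cholangiocyte markers (0 of 8, of which 7 lie below the median gene) ranged over 3.89 to 4.06 in HKO livers and 4.04 to 4.16 in controls. Hepatocyte markers (0 of 12) stood at 12.00, 11.93 and 11.69 in HKO livers 1 to 3 and 11.84, 11.97 and 11.81 in controls, so that HKO 3, high in fibrillar collagens, was lowest in these. The part of these cells in the values of the matrix genes was not tested.

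The targeted gene Tmbim1 measured 7.19, 7.14 and 7.06 in HKO livers and 7.62, 7.58 and 7.74 in controls, and fell by 0.52 ± 0.08 (adjusted p = 0.026), with all HKO values below all controls. It did not pass in the 6 fits without 1 array (adjusted p = 0.065 to 0.097). HKO 3, which stood apart in the matrix genes, held the lowest Tmbim1 value of the 6. Whether the probe set lies inside the deleted part is not stated in the labels.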

How the data were processed

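The deposited values are log2 intensities of 38208 probe sets on 6 arrays. RMA was the authors' method and limma is also named, per the submitters' processing notes, without versions or settings. Values lie between 0.498 and 13.6, with array medians between 3.92 and 3.95. Because RMA equalises the distributions of the arrays, it hides a general change in transcript amount, and it shrinks differences of dim probe sets. Labelled cRNA came from 400 ng of total RNA, per the labels' protocols.

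Gene names of probe sets come from the platform annotation, with symbols checked by gene ID (34325 have 1 symbol, 62 several, 3808 are unnamed here, 13 are controls). A synonym was accepted only where it is not itself a current gene symbol. The brightest probe set over all 6 arrays stands for each of 18029 genes. HKO minus control was fitted with limma 3.58.1 under R 4.3.3 (functions lmFit and eBayes, two-sided, no covariate) and adjusted over all genes by the Benjamini-Hochberg method, with a threshold of 0.05. The labels call the samples of a genotype biological samples. With 3 against 3 arrays the smallest p of an exact permutation test is 0.1, so no such test was run on single genes. The number of arrays limits the precision.

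The members, lists and alternatives were chosen with earlier results of these data known. All 6 values are given for the 2 members of each role with the lowest p and the 5 members with the largest differences. Col1a2, Sparc, Lrat and the second probe sets of Fn1 and Col1a2 were added after their values were seen. Of the other lists, genes past the threshold or else the gene with the lowest p are named, with values per liver for only some of these. The alternatives were other normalizations, filters, probe set choices, variance models, array weights, a block for the replicate number, another threshold and leaving out each array. Only the fitting step was tested on simulated data, with independent noise and planted differences.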

Additional observations from a re-analysis of the deposited data

How the results depend on the processing

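None of the 44 genes passed after quantile normalization, after median centring, without the genes dimmer than the median gene, with the gene's probe sets combined by their median or chosen in the control arrays, with probe sets tested singly, with a trended and robust variance, with weighted arrays, or at an adjusted p under 0.1. In the 6 fits without 1 array the count of members higher in HKO was between 0 and 1 (Ccn2, without control 2) and that of members lower was 0. The median difference of the members lay between -0.088 (without HKO 3) and 0.047 (without HKO 2). The spread of the member median between arrays was 0.125. It comes from these same arrays, so it is no independent measure of stability. Over all genes 182 passed, 344 at an adjusted p under 0.1, and between 78 and 161 in the 6 fits without 1 array (78 without HKO 1, 161 without HKO 2, 92 without HKO 3, 94 without control 1, 81 without control 2, 84 without control 3). With the replicate number as a block 125 genes passed and no member did. The labels do not say that the numbers pair the samples, and 1 of the 3 same-numbered pairs had a correlation of deviations above 0.1 (-0.094, 0.069 and 0.112). With probe sets combined by their median, in which dimmer probe sets enter, Lox (0.0556), Acta2 (0.0247) and Pdgfra (0.192) changed sign without passing. Acta2 also changed sign in fits without 1 array (-0.326 to 0.082), and the cause was not tested. The other 273 refits of the 19 members named by rule kept the direction and the side of the threshold, and Ccn2 without control 2 passed. Some of these refits could not change direction. The trended and robust variance, the replicate block and the single probe sets leave the difference unchanged by construction. Choosing probe sets in the control arrays also gave the same difference for each of the 19.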

Other observations

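No gene of the cell marker lists passed the threshold. In the fibroblast, macrophage and endothelial lists the gene with the lowest p was lower in HKO without overlap between genotypes. It was also lower in the quiescent stellate (Tcf21, -0.21, limma adjusted p = 0.597) and cholangiocyte lists (Sox9, -0.66, 0.171). The same held in the neutrophil (S100a9, -0.66, 0.563) and hepatocyte lists (Fgb, -0.20, 0.288). In the smooth muscle list the gene with the lowest p was higher (Tpm2, 0.42, 0.25). Igfbp6, an IGF-binding protein of fibroblasts, measured 3.83, 3.89 and 3.68 in HKO livers and 4.39, 4.19 and 4.50 in controls (-0.56 ± 0.10, limma adjusted p = 0.054), in a range below the median gene. Cd163, the haemoglobin scavenger receptor of resident macrophages, measured 6.29, 6.22 and 6.40 in HKO livers and 6.70, 6.75 and 6.89 in controls (-0.48 ± 0.09, adjusted p = 0.05). Tie1, an endothelial receptor tyrosine kinase, measured 3.64, 3.45 and 3.52 in HKO livers and 3.94, 3.84 and 3.88 in controls (-0.35 ± 0.08, adjusted p = 0.102). The fibroblast, macrophage and endothelial lists as wholes were mixed, with positive differences in 8 of 14, 10 of 17 and 6 of 16 markers. The largest positive differences in them did not pass either, at 0.62 ± 0.19 for Gas6 (adjusted p = 0.222), 1.03 ± 0.72 for Marco (0.607) and 0.44 ± 0.27 for Lyve1 (0.543), and these 3 genes were chosen after their values were seen.

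Of the matrix proteins outside the list, Nid1 (nidogen-1, a basement membrane linker) measured 6.30, 6.32 and 6.85 in HKO livers and 6.28, 6.12 and 6.41 in controls, and Fbln5 (fibulin-5, of elastic fibres) 4.83, 4.50 and 5.29 in HKO livers and 4.89, 4.79 and 5.22 in controls. Both were highest in HKO 3, as were the fibrillar collagens, and were chosen after their values were seen.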
